A study of Mus musculus with 2 samples.

Results

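The cells described here are the 369 of 5976 cells that the authors' clustering at a resolution of 0.8 placed in subcluster 6 of 16. They make up 6.17% of the cells (exact Clopper-Pearson 95% interval 5.58 to 6.82, counting error only). They came from all 3 mice at similar shares, 147 of 2445, 71 of 1184 and 151 of 2339 cells, or 6.15% ± 0.261 (SD, n = 3). They match the conventional type 1 dendritic cell and are called type 1 dendritic cell-like, or DC1-like, because 335 of the 369 had UMIs (unique molecular identifiers, each marking 1 captured transcript) of at least 3 of the markers Xcr1, Clec9a, Itgae and Tlr3. That share was 90.8%, against 1.63% of all other cells.

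The study profiled mouse cells sorted for CD45, carried by leukocytes, and for JAML, a junctional adhesion molecule-like receptor, in a single 10x Genomics library in which antibody hashtags separated 3 mice. The hashtag names of all 3 carry B16F10, a mouse melanoma line, and isotype-CTRL, so the files used here hold 1 group and no treated comparison. The labels call the cells T cells, whereas the subcluster held little RNA of T-cell genes and much of dendritic cell genes, as given below. Strain and age are not given in the sources used here, and because each animal is known only by its hashtag, the spread between mice is also the spread within 1 library.

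Type 1 dendritic cells arise under the transcription factors Irf8, Batf3 and Id2. They recognise dead cells through receptors such as Clec9a. They take up debris of dead cells and load the antigens on MHC class I for CD8 T cells, a route called cross-presentation. Xcr1 is the receptor for Xcl1, a chemokine made by natural killer cells and activated CD8 T cells, Itgae is the CD103 integrin chain and Tlr3 senses double-stranded RNA in endosomes. In tumours these cells are known for carrying tumour antigen to lymph nodes and for making Cxcl9 and interleukin 12.

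DC1-like cells were deeply sampled. Their median was 26945 UMIs and 4405 genes per cell, against 13969 UMIs in the other cells, and the summed counts of the mice were 4233495, 1888619 and 3887899 UMIs. No cell barcode occurred more than once. All 4 markers were found together in 276 cells, 3 in 59, 2 in 25, 1 in 7 and none in 2. Of the 69 other cells with all 4 markers, 63 were in subcluster 11, described below as its cycling neighbour. The authors' coarser clustering at a resolution of 0.1 placed 368 of the 369 cells in the same cluster. That cluster held 450 cells, 82 of them from subcluster 11, which numbered 129 cells in all.

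The promoters of Xcr1 and Clec9a, the 2 receptors that most define the lineage, are printed here because both hold a match to the same pattern, which leaves 4 positions free. Each run is the 250 bases before the gene's start in the RefSeq table (GRCm38.p6), written 5′ to 3′ on the gene's strand. Capitals mark matches to TTTC, any 4 letters and TGA, a shortened form of the composite element that BATF and IRF factors can bind together, searched on both strands.
Xcr1 (chr9:123862030-123862279, minus strand): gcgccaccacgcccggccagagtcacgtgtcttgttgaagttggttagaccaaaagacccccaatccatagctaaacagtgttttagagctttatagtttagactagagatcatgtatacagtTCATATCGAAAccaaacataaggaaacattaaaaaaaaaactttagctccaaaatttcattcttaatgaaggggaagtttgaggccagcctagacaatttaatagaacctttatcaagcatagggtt
Clec9a (chr6:129408612-129408861, plus strand): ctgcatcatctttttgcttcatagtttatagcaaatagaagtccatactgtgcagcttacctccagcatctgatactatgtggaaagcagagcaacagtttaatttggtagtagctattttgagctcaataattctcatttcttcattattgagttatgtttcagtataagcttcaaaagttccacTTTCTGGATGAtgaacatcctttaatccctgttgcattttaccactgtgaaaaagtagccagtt
The match lies 127 to 117 bases before the start of Xcr1, on the opposite strand, and 64 to 54 bases before that of Clec9a, on the gene's strand. Of the lineage's 22 listed identity genes, 15 matched a promoter entry. The motif was in 4 of these 15, Xcr1, Clec9a, Gcsam and Hepacam2, and in 1254 of all 32851 promoters of the same length (3.82%). The 15 are genes, counted once for a match in any of their entries, whereas the 32851 are single entries. A second pattern searched, GAAA, any 2 letters and GAAA, was in 2 of the 15, Ifi205 and Tlr11. It was in 2.98% of all promoters. A match is a description of the letters, and binding was not measured. In the GENCODE vM21 annotation of GRCm38 the Xcr1 gene spans chr9:123852315-123862029, Clec9a chr6:129408862-129424763, Itgae chr11:73090583-73147446 and Tlr3 chr8:45395665-45411080.

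Each marker was highest in DC1-like cells among the 16 subclusters. Levels are counts per 1000000 summed UMIs of 1 mouse (CPM). Xcr1 was at 535, 387 and 307 CPM in mice 1, 2 and 3, against 11.02, 12.7 and 7.93 CPM in all other cells, and the lowest DC1-like value stood above every other value. Itgae was at 361, 302 and 277 CPM against 8.86, 16.2 and 13.2. Tlr3 was at 165, 156 and 144 CPM against 5.71, 7.36 and 4.70. Clec9a was at 207, 186 and 179 CPM against 21.2, 16.9 and 20.3, again without overlap. Xcr1 and Itgae ranked the mice alike, with mouse 1 highest and mouse 3 lowest.

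Subcluster 11 came next for all 4 markers, with Xcr1 at 190 ± 15.7 CPM (SD, n = 3), Clec9a at 114 ± 28.0 and Tlr3 at 74.0 ± 10.8. Clec9a was also carried by plasmacytoid dendritic cell-like subcluster 0, at 62.2 ± 2.89 CPM. After each cell was thinned to 7537 UMIs, which left out 2 DC1-like cells and 593 others, 82.6% of DC1-like cells still had a UMI of Xcr1, 76.6% of Itgae, 68.9% of Clec9a and 58.6% of Tlr3. Without thinning the shares were 90.8%, 89.4%, 95.4% and 87.0%. In T-cell-like subcluster 1, which should lack Xcr1, a UMI of it was seen in 0.723% of thinned cells, at a median of 8550 UMIs per cell before thinning.

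**Figure D1:**
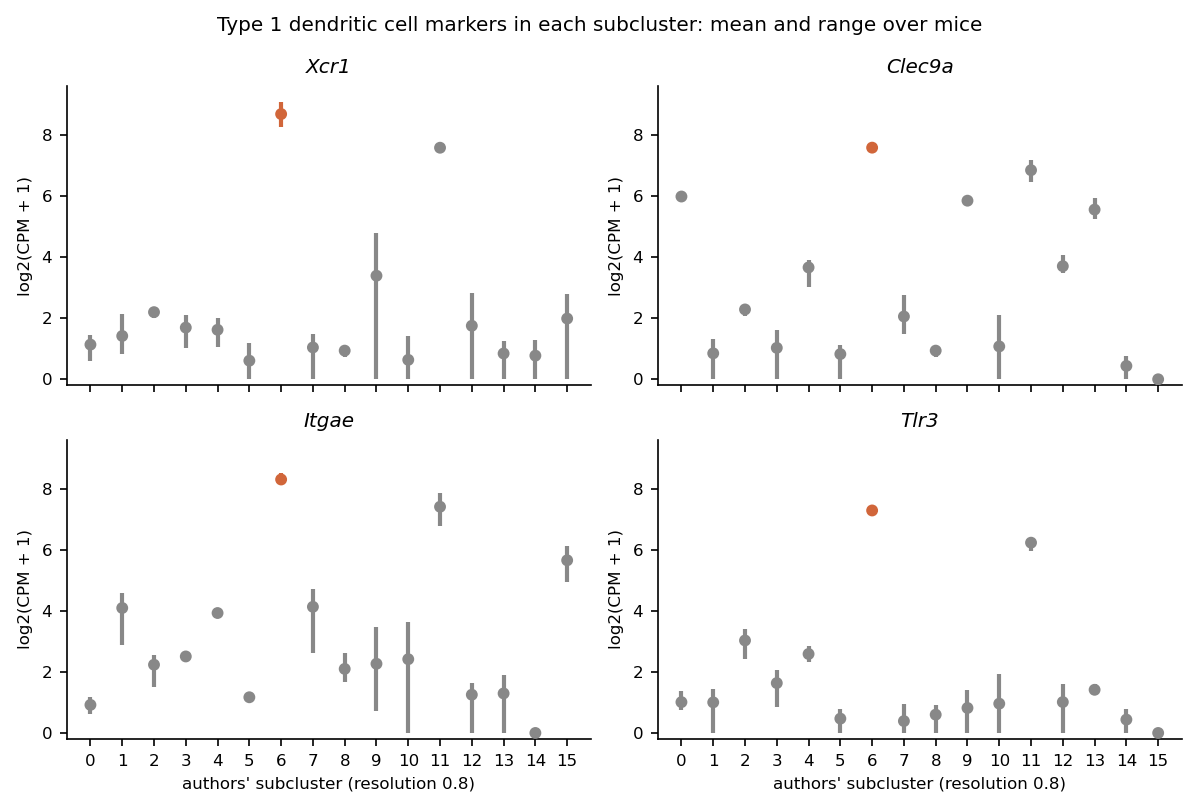
Levels of Xcr1, Clec9a, Itgae and Tlr3 as log2(CPM + 1) in each of the authors' subclusters, with a point at the mean over mice and a line from the lowest to the highest mouse. Subcluster 6, in orange, is highest for the 4 markers, with Xcr1 between 307 and 535 CPM, and subcluster 11 is next.

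Jaml, the gene of the receptor used for sorting, did not set these cells apart. It was at 389, 338 and 320 CPM in DC1-like cells and at 229, 199 and 232 CPM in the other sorted cells, a ratio under 2-fold in the mean. Plasmacytoid subclusters 0 (486 ± 36.0 CPM), 9 (484) and 13 (444) stood above DC1-like cells (349 ± 36.0), and subcluster 11 (332 ± 52.7) overlapped them. Type 2-like subcluster 4 was lower, at 231 ± 22.2 CPM. Cxadr, the gene of JAML's known ligand CAR, gave 1 UMI among all DC1-like cells.

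Comparisons of DC1-like cells with other cells are descriptions with no test, because the clusters were built from these genes. A gene was counted as higher or lower when its CPM differed by at least 2-fold, with 1 CPM added, in the same direction in each of the 3 mice. Among 9035 genes with a mean of at least 5 CPM, 317 (3.51%) were higher in DC1-like cells than in all other cells and 999 (11.1%) were lower. Scaling by TMM moved the median log2 ratio of the genes from -0.21 to -0.03 and the higher share of the counted genes from 24.1% to 31.7%. Against the most alike subclusters, chosen by correlation of mean log2 profiles, 29 genes were higher (0.338%) and 402 lower (4.69%) than in subcluster 11. Against subcluster 4 there were 267 (3.13%) and 449 (5.26%), and against plasmacytoid-like subcluster 13 there were 407 (4.7%) and 678 (7.84%). With TMM scaling the counts against subcluster 13 became 546 higher and 518 lower. These shares over all tested genes are the ones to set beside the list counts below.

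Of the 21 measured genes of the type 1 lineage list, 21 were higher than in all other cells, with a median log2 ratio of 3.56 against -0.21 over all tested genes. The list had been chosen with these cells' leading genes known and is no independent evidence. Snx22, a sorting nexin, was at 99.7 ± 9.03 CPM against 2.74, and Gcsam, a signalling adaptor first known from germinal centre B cells, was at 137 ± 8.22 against 5.03. Cd24a, a surface glycoprotein long used to mark this lineage, was at 612 ± 6.10 CPM against 49.1. Cadm1, an adhesion molecule that marks the lineage in mouse and human, was at 72.3 ± 26.8 CPM against 4.41. Sept3, a septin, was at 359 ± 40.1 CPM against 24.8. Outside the list, Rasgrp3, an activator of Ras proteins, was at 34.8 CPM against 2.06. Egr3, an early response transcription factor, was at 62.9 ± 27.7 CPM against 3.999, with the widest spread between mice among these genes relative to its mean.

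The transcription factors of the lineage were higher and those of its neighbours lower. Batf3 was at 225, 286 and 253 CPM in the 3 mice against 34.1, 49.1 and 34.2 in all other cells. Irf8 was at 2373, 2232 and 2088 CPM against 844, 667 and 806, and Id2, which represses the plasmacytoid programme, was at 1455, 1452 and 1195 CPM against 383, 376 and 372. In each of these the groups did not overlap, which is a description because the clusters were built from these genes. Zbtb46, a factor of conventional dendritic cells, and Bcl6 completed the 5 of 20 listed factors that were higher. Zeb2, which restrains the type 1 fate, was at 8.50, 5.82 and 4.63 CPM against 214, 242 and 191. Tcf4, the plasmacytoid master factor, Spib and Irf4, which serves type 2 cells, were the other lower members. Irf8 was higher still in plasmacytoid subclusters 0 (3290 CPM) and 9 (3217), and Batf3 in DC1-like cells (255 ± 30.5) overlapped that in subcluster 12 (226 ± 32.8). The growth factor receptors Flt3, on which dendritic cells depend, and Kit were higher as well, Flt3 at 187 CPM against 32.0, and Csf1r, the macrophage growth factor receptor, was lower.

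**Figure D2:**
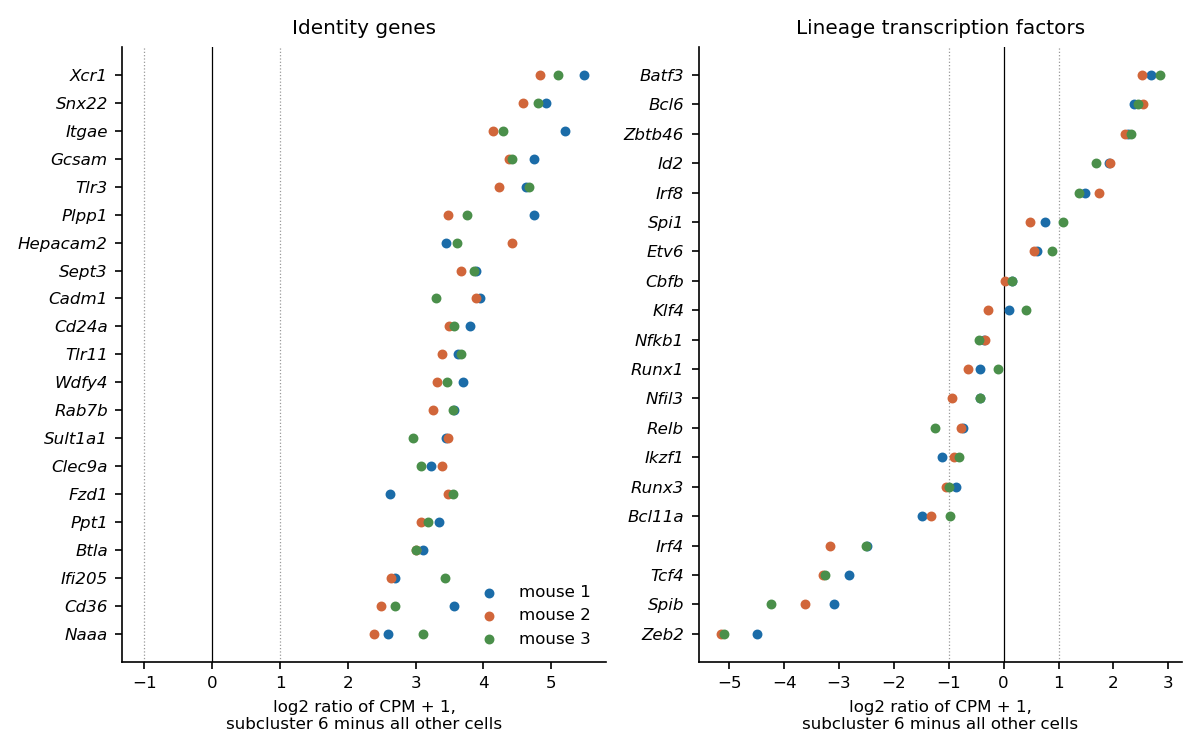
Log2 ratio of CPM + 1 in subcluster 6 over all other cells for the 21 identity genes and the 20 lineage transcription factors, with 1 point per mouse and dotted lines at 2-fold. The 21 identity genes lie past 2-fold in each mouse, as do Batf3, Irf8 and Id2, while Zeb2, Tcf4, Spib and Irf4 lie past it on the lower side.

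Antigen uptake and cross-presentation genes were mixed, with 5 of 24 measured genes higher and 6 lower, beside 3.51% and 11.1% over all tested genes. Wdfy4, required for cross-presentation of cell-bound antigen, was at 536, 498 and 472 CPM against 40.4, 49.0 and 41.8. Cd36, a scavenger receptor, was at 65.0, 38.6 and 39.9 CPM against 4.54, 6.07 and 5.29. Rab43, Plet1 and Clec9a were the other higher genes. Among the lower were the oxidase subunit Cybb, at 23.4, 13.8 and 15.95 CPM against 365, 350 and 323, and the GTPase Rac2, at 196 CPM against 851. Cybb was also lower than in type 2-like subcluster 4 (230, 186 and 195 CPM), the groups standing apart in each mouse.

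The lysosome list held strong differences both ways, with 3 of 23 higher and 9 lower, beside 3.51% and 11.1% over all tested genes. Naaa, an acid amidase, was at 2106, 2061 and 1836 CPM against 350, 394 and 213, and Ppt1, a thioesterase that removes palmitate, at 737, 612 and 594 against 71.9, 71.6 and 64.7. Psap, the precursor of the saposins, was at 4136 ± 251 CPM against 1572. Proteases were on the other side. Cathepsin D, Ctsd, was at 15.6, 15.4 and 18.5 CPM against 330, 325 and 314, and against 93.8, 90.7 and 102 in subcluster 4. Ctsl and Ctsb were likewise lower than in all other cells.

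MHC class II genes were counted as higher mainly against the sort as a whole. Of 13 measured, 7 were higher and 1 lower than in all other cells, beside 3.51% and 11.1% over all tested genes. H2-Ab1 was at 11175 ± 211 CPM against 3945 and the invariant chain Cd74 at 23772 ± 331 against 9720. Against the other cells outside the T-cell clusters the count was 2 higher and 2 lower, beside 252 and 827 of 8847 tested genes. Against subcluster 4 it was 0 and 3, beside 3.13% and 5.26% over all tested genes. None of the 21 class I genes was higher. H2-K1 was at 1386, 1025 and 1094 CPM against 2599, 2308 and 2603. Of the 21, 3 nonclassical genes, H2-Q4, H2-Q6 and H2-Q7, were lower, a share close to the 11.1% over all tested genes. The peptide transporter Tap1 had the other direction in each mouse, at 478, 458 and 438 CPM against 265, 262 and 232, without reaching 2-fold.

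Of 16 Toll-like receptors and adaptors listed, Tlr3, Tlr11, which recognises profilin of protozoa, and the adaptor Ticam1 were higher, and Tlr7, the single-stranded RNA sensor of plasmacytoid cells, was lower, at 4.02, 0 and 1.54 CPM against 27.6, 22.4 and 28.6. Of 20 C-type lectins, Ly75, Clec1b, Clec9a and Clec1a were higher and 11 were lower, among them Clec4n, at 2.32 CPM against 113. Xcr1 was the only one of 14 chemokine receptors that was higher, and 8 were lower. Over all tested genes the shares were 3.51% higher and 11.1% lower.

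Cytokine, maturation and costimulation counts stand beside 3.51% higher and 11.1% lower over all tested genes, so a larger lower than higher count is not particular to them. Of 22 cytokine genes only Il18 was higher, at 45.1, 51.9 and 52.7 CPM against 14.4, 20.1 and 13.6, and 6 chemokines were lower: Cxcl10, Ccl22, Ccl17, Ccl5, Ccl3 and Ccl4. Il12b, which encodes a chain of interleukin 12, was at 4.96, 1.59 and 0.257 CPM, from 6, 1 and 1 cells. Of 24 maturation genes 13 were lower, including Fscn1, an actin bundler of migrating dendritic cells, at 0.945, 0.529 and 0.514 CPM against 30.5, 35.2 and 54.9. Ccr7, which guides mature cells to lymph nodes, had UMIs in 7, 3 and 7 DC1-like cells. Of 24 costimulation and checkpoint genes, Slamf7 and Btla were higher and 5 lower, and with TMM or RLE scaling 4 were higher and 3 lower. Btla, an inhibitory receptor, was at 138, 133 and 134 CPM against 15.2, 15.8 and 15.8. Cd274, which encodes PD-L1, was at 22.2, 10.1 and 17.2 CPM against 50.7, 57.7 and 49.8.

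Of 25 interferon response genes measured, 9 (against the 11.1% over all tested genes) were lower and 1, Ifi205, was higher, at 628, 657 and 615 CPM against 95.7, 105 and 55.8. Ifit3, an interferon-induced antiviral gene, was at 3.07, 2.12 and 3.60 CPM against 56.0, 90.1 and 90.1. Type 2-like subcluster 4 held more of it, at 124, 137 and 136 CPM. In DC1-like cells 13 of the 25 genes were lower than there, against 5.26% over all tested genes. Of 16 genes of the interferon gamma-induced GTPases and related factors, 9 were lower than in all other cells (7 with TMM or RLE scaling) and 10 lower than in subcluster 4. Gbp2, a guanylate-binding GTPase, was at 23.9, 16.4 and 20.6 CPM against 124, 147 and 92.3. Cxcl9, an interferon gamma-induced chemokine that attracts T cells, was at 112, 60.4 and 85.1 CPM against 153, 231 and 64.1 in all other cells, where the order differed between mice, and against 493, 312 and 274.96 in subcluster 4, where it did not.

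**Figure D3:**
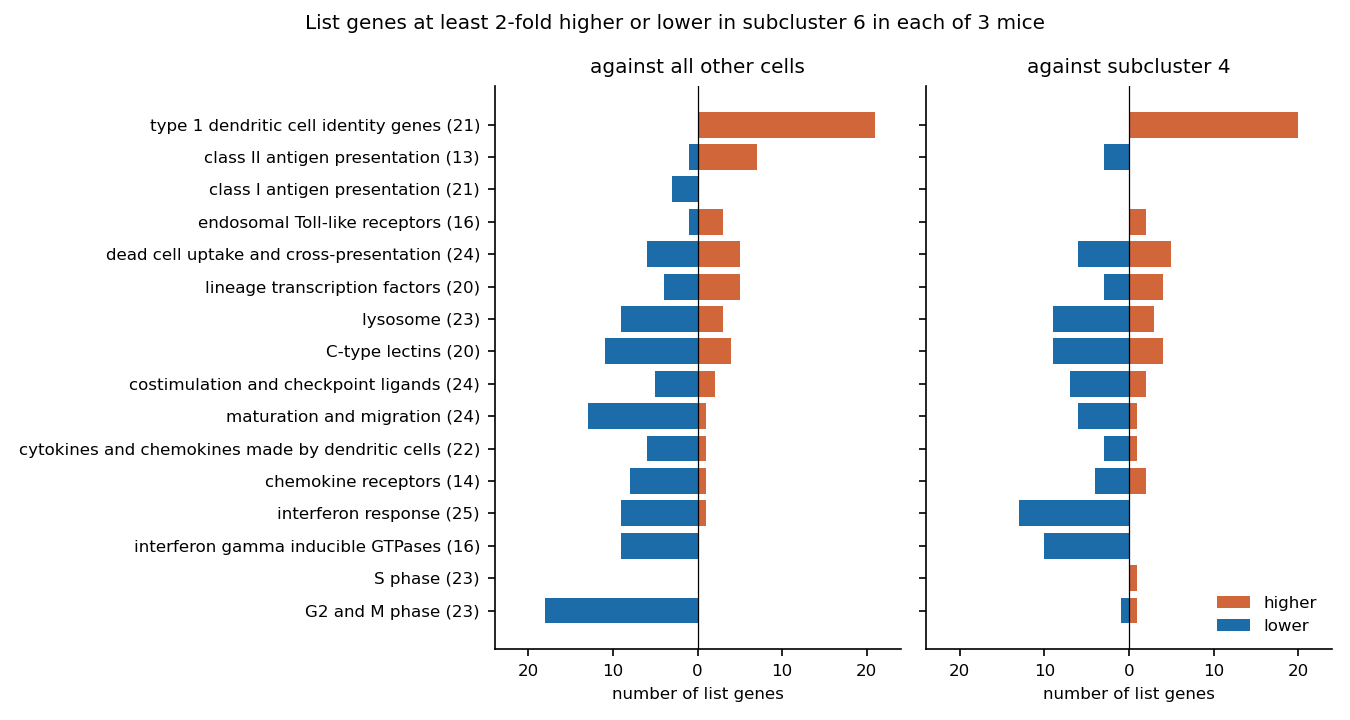
Number of measured genes of each list that were at least 2-fold higher (orange) or lower (blue) in subcluster 6 in each mouse, against all other cells (left) and subcluster 4 (right), with the list's measured genes in brackets. Of the identity genes, 21 are higher against all other cells and 20 against subcluster 4, and 13 interferon response genes are lower against subcluster 4.

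Marker lists of other cell types summed lower than in all other cells, a pool that includes the T-cell-like and plasmacytoid-like subclusters. Summed over the list, 12 T-cell markers were at 124 to 207 CPM in DC1-like cells against 3364 to 4348 in all other cells, 12 of 12 lower. The 12 macrophage markers were at 804 to 845 CPM against 4665 to 6588 and 11 were lower, with Lyz2 at 346 CPM the main remainder. The 10 plasmacytoid markers were at 484 to 723 CPM against 2858 to 3916 and 10 were lower. The 10 type 2 dendritic cell markers were at 75.6 to 150 CPM against 726 to 1069 and 9 were lower, and 9 natural killer markers were at 8.47 to 20.3 CPM against 335 to 441 with 8 lower. Against subclusters 11 and 4, none of the T-cell or natural killer markers was counted as higher or lower. Of the plasmacytoid markers only Pacsin1 was counted, as higher than in subcluster 4. Macrophage markers had 2 and 6 lower in these comparisons, and type 2 markers 5 and 8. The 5 measured B-cell markers were at 151 to 192 CPM against 237 to 323, and only Cd79b was lower. Their sum was 173 to 205 CPM in subcluster 11 and 90.4 to 151 in subcluster 4, with no member counted as lower than there. Cd79a of the B-cell list and Col1a1 of the stromal list gave no UMI. That allows up to 0.300 CPM over the summed cells (3 UMIs, counting error only).

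Against the closest subcluster, 11, the most genes of any list that differed were those of the cell cycle, with 23 of 23 genes of G2 and M phase and 9 of 23 of S phase lower in DC1-like cells. Of the 21 identity genes 1, Cd36, was higher in DC1-like cells by 2-fold in each mouse and none was lower, though their median log2 ratio was 0.88. Of 10 type 2 markers 5 were lower (Sirpa, Clec4b1, Ffar2, Itgam and Clec10a), and the list summed to 75.6 to 150 CPM against 171 to 935 in subcluster 11. Of 20 C-type lectins 6 were lower, against 4.69% over all tested genes. Of the 129 cells of subcluster 11, 82 were in the coarse cluster of the DC1-like cells, so its values mix coarse clusters. Whether that mix gave the type 2 and identity gene differences was not tested. The histone gene Hist1h2ae was at 9.002 CPM in DC1-like cells against 809, and Hist1h2ap at 23.3 against 1344. Genes higher in DC1-like cells than in subcluster 11 numbered 29, or 65, 59 and 97 without mouse 1, 2 or 3, and included Trib1, a pseudokinase, at 121 CPM against 35.4, Serpinb6b, a protease inhibitor, at 38.4 against 11.6, and Cd36 at 47.8 against 20.8. Against type 2-like subcluster 4, the mannose receptor Mrc1 (1.52 CPM against 103) and Cd209a (33.2 ± 29.95 against 1175 ± 220) were lower and 20 of the 21 identity genes were higher. Against subcluster 13, Rab7b, a small GTPase of late endosomes, was at 322 CPM against 0.336 and Id2 at 1367 against 21.5, while Cd209d (2.28 against 818) and Apod (1.65 against 508) were lower.

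Variation among the DC1-like cells was ranked by the variance to mean ratio of thinned counts in the mouse where it was lowest. Malat1, a nuclear RNA, ranked first and Ifitm1, an interferon-induced membrane protein, next. The ratio was not adjusted for a gene's level, so the order is not one of variation relative to the mean. Malat1 had means of 154.7, 128.3 and 154.5 thinned UMIs per cell in mice 1, 2 and 3, and Ifitm1 0.829, 2.29 and 1.40. The ratio was 75.8 for Malat1, 24.1 for Ifitm1, 18.7 for Cst3, 11.1 for Lgals3, 10.9 for Ifitm2 and 10.5 for Ifitm3. It was 9.54 for the cytokine Il1b and 9.46 for Cd74, against a median of 0.971 over 3899 genes. Tmsb4x and Actb ranked between Cst3 and Lgals3. Thinning with another random seed kept 9 of the 10 top genes, all but Il1b. Ifitm1 had a UMI in 42.2%, 47.9% and 45.03% of the cells of the 3 mice, and up to 240, 135 and 193 UMIs in a single cell. Il1b had a UMI in 46.9%, 40.8% and 59.6%, and Cxcl9 in 40.8%, 29.6% and 20.5%.

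Cells of the subcluster were then split by 1 gene and the summed counts of the classes compared across mice with edgeR's quasi-likelihood test, with mouse as a block, since both classes come from each mouse. The split gene was left out of its own results. The splits by Cd8a and Jaml were planned, and those by Cxcl9, Ifitm1 and Cd3 genes were chosen after seeing the data. Classes split by the presence of a UMI were paired on total UMIs.

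Cells above the median Jaml of their mouse (Jaml-high) differed from the others (Jaml-low) in lineage receptors and replication genes. The classes held 73, 35 and 75 cells against 74, 36 and 76, with median Jaml of 520, 433 and 440 CPM against 268, 226 and 190, and similar depth. At an adjusted p of 0.05, 70 of 8335 genes (0.84%) were higher in the Jaml-high cells and 139 (1.67%) were lower, by edgeR with mouse as a block. Without the block there were 0 of either (791 at an unadjusted p under 0.05), and DESeq2 called 26. The counts were 7 without mouse 1, 323 without mouse 2 and 75 without mouse 3.

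Xcr1 was at 586, 461 and 360 CPM in the Jaml-high cells against 491, 308 and 253, higher in each mouse (log2 0.42 ± 0.07 SE, edgeR adjusted p = 0.0016). Itgae was at 422, 371 and 316 CPM against 308, 229 and 238 (log2 0.49 ± 0.08, adjusted p = 0.00058). Clec9a (log2 0.33 ± 0.10, edgeR adjusted p = 0.074) and Tlr3 (0.29, adjusted p = 0.15) did not pass, nor did Batf3 (-0.09, adjusted p = 0.68). In all, 6 of the 21 identity genes, 4 of 21 class I genes and 4 of 23 lysosome genes were higher and none of them lower, with Naaa and Ppt1 in both the identity and the lysosome lists. Without mouse 1 edgeR called 0, 0 and 0 (11, 6 and 6 at an unadjusted p under 0.05). Without mouse 3 they were 4, 0 and 3, and without cells with at least 2 Cd3 UMIs 4, 0 and 1. H2-K1, a class I heavy chain, was higher by 0.27 ± 0.05 on the log2 scale (edgeR adjusted p = 0.0033), and Naaa by 0.28 ± 0.05 (adjusted p = 0.00076). Without mouse 1 the edgeR adjusted p was 0.11 for Xcr1 and 0.14 for each of Itgae, H2-K1 and Naaa, and H2-K1 also missed the threshold without mouse 3 (adjusted p = 0.078).

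The lower side of the Jaml split held genes of DNA replication. Of 23 S-phase genes 15 were lower in the Jaml-high cells, with a median log2 of -0.98 against 0.01 over all genes tested, and none was higher. The count of lower genes was 0 without mouse 1 (19 at an unadjusted p under 0.05, edgeR), 22 without mouse 2 and 5 without mouse 3, with medians of -1.05, -1.18 and -0.63. It was 7 without cells with at least 2 Cd3 UMIs and 0 without the block (20 at an unadjusted p under 0.05). Mcm3, a subunit of the replicative helicase, was at 66.2, 74.0 and 27.7 CPM against 124, 114 and 94.9 (log2 -1.09 ± 0.15 SE, edgeR adjusted p = 6.2e-05), lower in each mouse. None of the 10 tested G2 and M phase genes passed.

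Interferon-induced genes went both ways in the Jaml split. Of 21 tested interferon response genes Ifit2 and Stat2 were higher and none was lower, with a median log2 of 0.25, and of 11 tested genes of the interferon gamma list Irgm1 was higher and Cxcl9 lower. Cxcl9 was at 70.2, 40.1 and 52.3 CPM against 149, 81.9 and 118 (log2 -1.12 ± 0.12, edgeR adjusted p = 1e-06). Ifitm3, singled out after its values were seen, was at 363, 895 and 1209 CPM against 744, 1287 and 1515 (log2 -0.62 ± 0.08, adjusted p = 4.6e-05), and Jdp2, an AP-1 family repressor, at 25.3, 24.7 and 24.1 CPM against 47.9, 55.7 and 91.8 (log2 -1.41 ± 0.18, adjusted p = 4.6e-05). Ccr7 was lower too, at 6.57, 0 and 0.513 CPM against 23.1, 24.03 and 9.28, though it rests on the 17 cells with a UMI of it. Without mouse 1, Cxcl9 and Jdp2 still passed, while the edgeR adjusted p was 0.14 for Mcm3, 0.095 for Ifitm3 and 0.071 for Ccr7.

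Plasmacytoid markers moved with the Jaml split. Of 10 such genes 3 were higher in the Jaml-high cells, and their sum was 903, 506 and 709 CPM against 565, 462 and 599. Siglech, a plasmacytoid receptor, was at 65.7, 7.19 and 24.1 CPM against 23.5, 5.46 and 18.1 (log2 1.02 ± 0.23 SE, edgeR adjusted p = 0.012), and single cells held up to 43 of its UMIs. Without mouse 1 its log2 was 0.41 (edgeR adjusted p = 0.74). Without the 50 cells that had at least 2 UMIs of Siglech, Ly6d, Klk1 and Ccr9, 136 genes passed, 119 of them shared with the full split. T-cell markers showed no 1 order, at 103, 314 and 113 CPM against 122, 59.0 and 228, and 70 genes passed without cells that had at least 2 UMIs of Cd3 genes, 65 of them shared. Ctsl, 1 of the lysosome genes called, had a log2 of 0.46 (edgeR adjusted p = 0.50) without the plasmacytoid-marked cells.

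**Figure D4:**
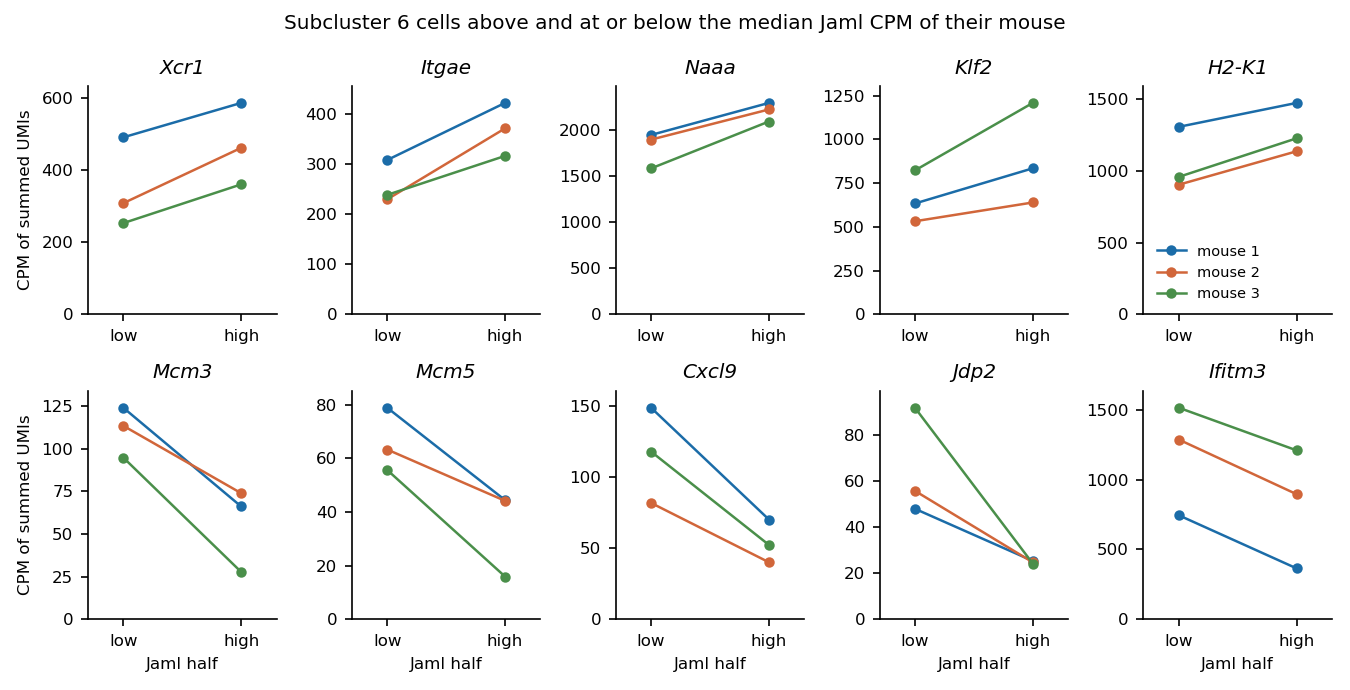
CPM of 10 genes in the Jaml-high and Jaml-low cells of subcluster 6, with lines joining the classes of 1 mouse. Xcr1 and Itgae are higher in the Jaml-high cells of each mouse, and Mcm3 and Cxcl9 are lower.

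Cells with a Cxcl9 UMI carried more of some interferon gamma-induced genes. Of 6 tested genes of the interferon gamma list 2 were higher, Iigp1 and Gbp2, and of 16 tested interferon response genes none passed (3 at an unadjusted p under 0.05, edgeR). The comparison held 60, 21 and 31 pairs of cells, and 41 of 6319 genes (0.649%) were higher and 23 (0.364%) lower by edgeR with the block, or 13 in all without the block and 6 by DESeq2. Serpina3g, a protease inhibitor of activated leukocytes, was at 235, 59.9 and 118 CPM against 44.0, 23.2 and 18.3, higher in each mouse (log2 2.31 ± 0.19 SE, edgeR adjusted p = 5.5e-10). Socs1, a feedback inhibitor of interferon signalling, was at 102, 33.4 and 62.0 CPM against 19.7, 26.7 and 14.6 (log2 1.88 ± 0.26, adjusted p = 2e-05). Irf1, singled out after its values were seen and the transcription factor of the early interferon gamma response, was at 139, 77.5 and 126 CPM against 53.9, 62.4 and 42.7 (log2 1.18 ± 0.18, adjusted p = 0.0001). The GTPases Gbp2 (log2 1.55) and Iigp1 (2.42) passed as well, Iigp1 with 0.80 and an edgeR adjusted p of 0.86 without mouse 1 and Gbp2 with an adjusted p of 0.079 without cells with at least 2 Cd3 UMIs. On the lower side were Pclaf (-2.08), a replication clamp partner, Top2a (-1.75), Nr4a2 (-1.10) and Plet1 (-0.97). None of the identity, class I or class II genes passed, and Xcr1 had a log2 of 0.24 (edgeR adjusted p = 0.59).

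T-cell RNA and plasmacytoid markers moved with Cxcl9. The sum of T-cell markers was 163, 380 and 203 CPM in the cells with a Cxcl9 UMI against 41.7, 37.4 and 70.7, and 5 of 5 tested were higher. Leaving out cells with at least 2 UMIs of Cd3d, Cd3e and Cd3g, an alternative chosen after seeing the data, 8 genes passed. Higher were Serpina3g (log2 2.10), Socs1 (1.85), Irf1 (1.19), Iigp1 (2.14), Serpinb6b (2.56), Dnase1l3 (1.55) and Txn1 (0.47), and Pclaf was lower (-2.17). Nkg7, a granule gene of killer lymphocytes, had a log2 of 2.19 with those cells and -0.22 without them. The top cell of each mouse held 36, 77 and 48 of the 108, 106 and 225 Nkg7 UMIs in the subcluster. Plasmacytoid markers summed to 660, 488 and 471 CPM against 496, 405 and 389, with Pacsin1 the 1 called of 4 tested, and Dnase1l3 had a log2 of 0.95 (edgeR adjusted p = 0.13) without the plasmacytoid-marked cells.

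**Figure D5:**
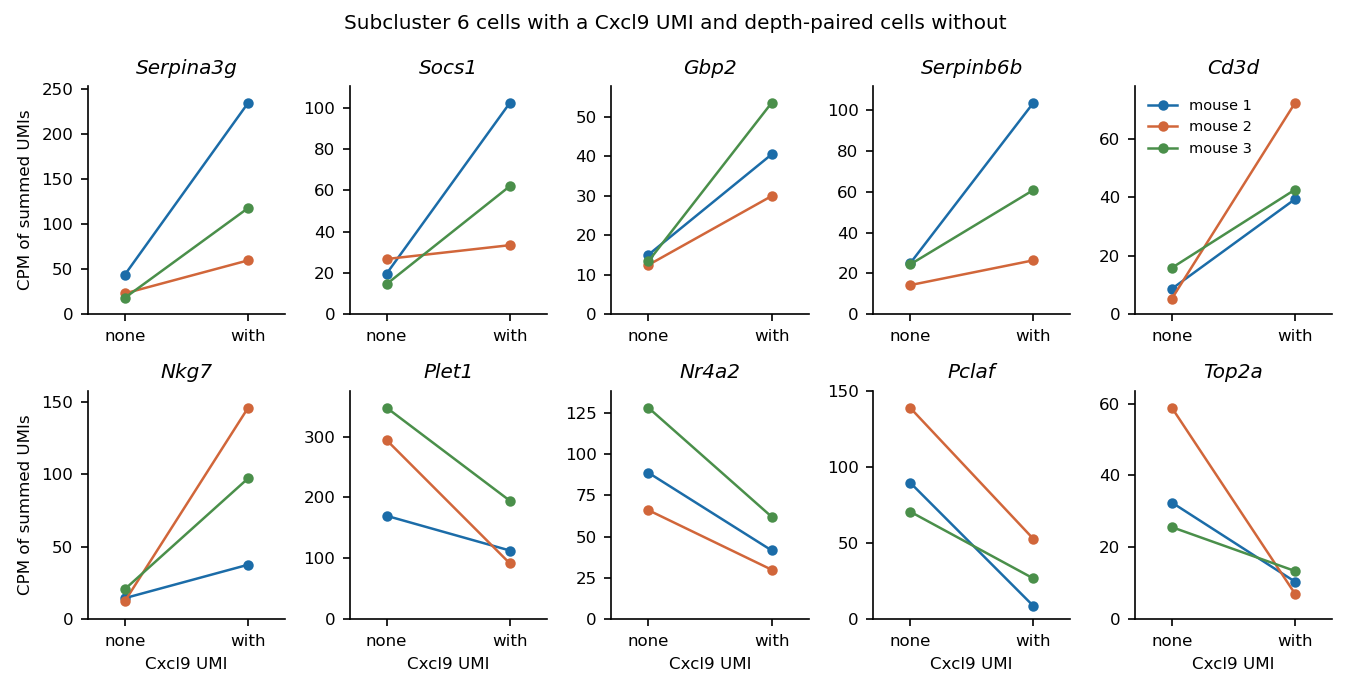
CPM of 10 genes in cells of subcluster 6 with a Cxcl9 UMI and in depth-paired cells without, with lines joining the classes of 1 mouse. Serpina3g and Socs1 are higher in the cells with Cxcl9 in each mouse, and so are Cd3d and Nkg7 of T and killer cells.

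Cells with an Ifitm1 UMI differed from the rest in few genes. In 62, 34 and 68 pairs, 9 of 8233 genes (0.109%) were higher and 0 lower by edgeR with the block (352 genes at an unadjusted p under 0.05), or 0 without the block (252) and 4 by DESeq2. Leaving out mouse 1, 2 or 3 gave 25, 46 or 16 genes. Wfdc17, a small secreted inhibitor, was at 159, 296 and 293 CPM against 64.4, 156 and 138 (log2 1.11 ± 0.10 SE, edgeR adjusted p = 0.00028). Plet1, a surface protein, was at 221, 268 and 260 CPM against 100.3, 62.2 and 160 (log2 1.18 ± 0.18, adjusted p = 0.016). Ifitm2 (log2 0.80) and Ifitm3 (0.62) passed too, as did Cd209a, at 24.8, 130 and 26.6 CPM against 10.4, 16.7 and 7.34. Type 2 markers summed to 119, 189 and 77.0 CPM against 84.0, 109 and 41.8, higher in each mouse. A single cell held 37, 34 and 21 of the 65, 128 and 64 Cd209a UMIs of the 3 mice.

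Cd8a marks type 1 dendritic cells of lymphoid organs, where the protein pairs with itself and Cd8b1 is absent. In DC1-like cells Cd8a had a UMI in 46, 17 and 37 cells, 27.1% in all and 10.4% after thinning, against 7.75% of thinned cells of type 2-like subcluster 4. Cd3g, a T-cell gene, stood at 11.4% of thinned DC1-like cells. The ratio of Cd8a to Cd8b1 UMIs was 2.78, 1.54 and 1.62 in the 3 mice (232 to 122 UMIs, 1.90), above the 0.833 of the T-cell clusters and the 0.799 of subcluster 4. Subcluster 11, the cycling neighbour, had a ratio of 1.55.

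The 46, 17 and 37 pairs of Cd8a-positive and Cd8a-negative cells were compared by edgeR with the block. Of 6938 genes, 11 (0.159%) were higher in the Cd8a-positive cells and 3 (0.0432%) lower. There were 2 in all without the block, 4 by DESeq2 and 22 without mouse 1. The higher genes included 3 of 5 tested T-cell markers, Cd3d, Cd3g and Trbc2, and 2 of 9 tested plasmacytoid markers, Ly6d and Cox6a2. Nkg7 was at 43.5, 164 and 164 CPM against 14.8, 14.5 and 17.8 (log2 2.73 ± 0.27 SE, adjusted p = 0.00012), with Cd3d (2.59 ± 0.30) and Cd3g (2.25 ± 0.25) beside it. T-cell markers summed to 112, 447 and 308 CPM against 45.1, 54.0 and 66.2. The top cell of each mouse held 36, 77 and 48 of the 108, 106 and 225 Nkg7 UMIs in the subcluster. For Cd3d these were 26, 39 and 16 of 90, 53 and 116. Ly6d (log2 1.54, edgeR adjusted p = 0.00086) and Cox6a2 (1.999, adjusted p = 0.0056) were higher too. Plasmacytoid markers summed to 805, 469 and 913 CPM against 697, 429.6 and 672. Neither Ly6d nor Cox6a2 passed by DESeq2 or without the block. Without mouse 3 the edgeR adjusted p was 0.099 for Ly6d and 0.12 for Cox6a2. The top cell of each mouse held 76, 1 and 91 of the 131, 13 and 210 Ly6d UMIs in the subcluster. No identity gene passed. Without the cells that had at least 2 Cd3 UMIs, 0 genes passed edgeR's test (170 at an unadjusted p under 0.05), and the ratio of Cd8a to Cd8b1 was 2.63.

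The 64 DC1-like cells with at least 2 UMIs of Cd3 genes, 24, 14 and 26 in the 3 mice, were compared with paired cells that had fewer. By edgeR with the block, 15 of 6102 genes (0.246%) were higher and 3 (0.0492%) lower, or 8 in all without the block and 3 by DESeq2. Without mouse 1 there were 10 higher and 2 lower, and in all 28 without mouse 2 and 61 without mouse 3. Cxcr6 (log2 4.11), a chemokine receptor of resident T cells, the T-cell kinase Lck (3.81), Ms4a4b (3.38) and Cd8a (1.92) were higher, and Pclaf (-1.79), Top2a (-1.64) and Tuba1b (-0.76) lower. None of these named genes passed by DESeq2, and Ms4a4b and Cd8a also missed the threshold without the block. By edgeR, Pclaf, Top2a and Tuba1b missed it without the block, without mouse 1 and without mouse 2, and passed without mouse 3. The top cell of each mouse held 17, 15 and 10 of the 29, 21 and 39 Cxcr6 UMIs in the subcluster. The source of the Cd3 UMIs in these cells was not tested.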

How the data were processed

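The authors' deposited table holds raw UMI counts per gene and cell, and their annotation gives each cell's total count, hashtag, clusters, UMAP scores and percent of mitochondrial UMIs. Cell Ranger 3.1.0, Seurat 3.1.5 and the mm10 build are named in the submitters' processing notes, without roles, and filters on cells are not given in the sources used here. The annotation's species column names human, whereas the labels and gene symbols are those of mouse. In total 8 cells had no hashtag, none of them in subcluster 6.

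UMIs were summed per mouse and class with Python 3.11.15 and pandas 2.3.3 and scaled to 1000000 (CPM). Splits inside the subcluster were tested with edgeR 4.0.16 in R 4.3.3 (quasi-likelihood, TMM, filterByExpr, mouse as a block, Benjamini-Hochberg, threshold 0.05), with DESeq2 1.42.0 as an alternative. The block is a pairing by animal: both classes come from the same mouse. SE is the log2 change divided by the square root of F. The scripts were tested on simulated data. No doublet caller was run and no cell was removed. A split needed at least 10 cells per class and mouse. Subclusters were named X-like from marker lists.

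The members and gene lists were chosen with earlier results of these data known. Genes named are list members, the largest and smallest ratios among genes counted in every mouse and reaching 30 CPM, the largest called changes of each split, the 10 most variable genes and a fixed set of lineage genes. Bcl6, Zbtb46 and others without a value are named for their list call only. Normalization, low-count filter, fold, pseudocount, split rule and each mouse were varied. Surface protein tags were not analysed here, and 1 withheld item is not reported here.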

Additional observations from a re-analysis of the deposited data

How the results depend on the processing

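Of 153 ratios of single named genes, TMM moved 27 by more than the SD between mice and RLE 33. A pseudocount of 0.1 CPM moved 48, of 5 CPM 70, and leaving out cells with at least 2 Cd3 UMIs 12. Leaving out a mouse moved none, but that was fixed in advance, because dropping 1 of 3 values cannot shift their mean by their SD. Of 80 against all other cells, weighting subclusters equally moved 33 and dropping T-cell clusters 64. None of these reversed a called ratio. Asking for 4-fold in each mouse left 117 higher and 481 lower genes against all other cells, 0 and 182 against subcluster 11, 89 and 187 against subcluster 4, and 166 and 248 against subcluster 13. A mean of at least 20 CPM left 467 lower against all other cells, 9 higher and 223 lower against subcluster 11, 157 and 259 against subcluster 4, and 236 and 410 against subcluster 13. No filter gave 1541 lower against all other cells and 62 higher against subcluster 11, where a pseudocount of 5 CPM gave 5, and leaving out 1 mouse 59 to 97. Thinned shares of cells with a UMI were 82.6% for Xcr1, 68.9% for Clec9a, 76.6% for Itgae, 58.6% for Tlr3 and 88.0% for Jaml.

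Inside the subcluster the pairing by mouse mattered. With no block, edgeR called 0 genes for Jaml, 2 for Cd8a, 13 for Cxcl9, 0 for Ifitm1 and 8 for the Cd3 genes. DESeq2 called 26 (of 683 genes given an adjusted p), 4, 6, 4 and 3. A threshold of 0.01 left 80 for Jaml, 8 for Cd8a, 37 for Cxcl9 and 2 for Ifitm1. No filter gave 23 for Cd8a, 111 for Cxcl9, 44 for Ifitm1 and 51 for Cd3. Unmatched cells gave 2 for Cd8a, 37 for Cxcl9 and 55 for Cd3. Leaving out each mouse in turn gave 7 to 323 for Jaml, 11 to 22 for Cd8a, 59 to 91 for Cxcl9, 16 to 46 for Ifitm1 and 12 to 61 for Cd3. Without cells with at least 2 Cd3 UMIs there were 70 for Jaml, 0 for Cd8a and 8 for Cxcl9. Without those with at least 2 plasmacytoid UMIs there were 136 for Jaml, 7 for Cd8a and 42 for Cxcl9. The upper against the lower tertile by Jaml gave 137, and at least 2 Cxcl9 UMIs gave 32. At least 1 Cd3 UMI gave 0 by edgeR (298 at an unadjusted p under 0.05), and Txndc16 turned to -0.20 there, as Nkg7 did to -0.22 in the Cxcl9 split without Cd3 cells. Of the values of single named genes under alternatives, 1127 kept their status as called or not called. A further 306 kept direction but lost the call, 4 gained a call and 2 of called genes reversed. Direction was not compared for genes not called in the main run. The causes were not tested.

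The Ccr7 split was not run, with 7, 3 and 7 cells, nor the split at 2 Cd8a UMIs, with 7 cells in mouse 2. Depth limits genes with few UMIs per cell, and 3 mice of 1 library limit the precision.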
